A study of Mus musculus with 38 samples.

Results

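The transcription factors that set epidermal identity were followed at 10 gene loci while SOX9, a factor normally restricted to hair follicle stem cells (HFSCs), was switched on in the epidermal stem cells (EpdSCs) of mice. The 10 genes, Trp63, Gata3, Tfap2a, Tfap2b, Tfap2c, Grhl1, Grhl3, Ovol1, Hopx and Cebpa, were listed by their known role and were taken from 21938 protein-coding genes of the annotation. Each locus ran from 50 kb before the gene to 50 kb beyond it, and every called interval that overlapped it by at least 1 bp was kept. Chromatin was profiled by MINT-ChIP: nucleosomes are tagged with a barcode per sample, mixed, and only then divided among antibodies. The 38 samples comprised 12 each of H3K4me1, H3K27ac and total H3 from skin and 2 of H3K4me1 from cultured cells, each kind in high and low MNase digestions that the lists do not separate. The libraries that hold the W12 cells also contain W2 replicate 1, from which barcodes separate them. The lists analysed here pool all replicates of a group, so 5 H3K27ac lists, 5 H3K4me1 lists and 4 culture lists were compared without a spread between replicates and without any test. Total H3 was not analysed here.

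Skin cells came from male K14rtTA; TRE-myc-Sox9 mice, in which the Krt14 promoter drives the DOX-dependent activator in stratified epithelium and MYC-tagged SOX9 follows only when doxycycline (DOX) is given. DOX was injected at postnatal day 21 and continued in the feed, and cells were taken without induction (D0) and after 1, 2, 6 and 12 weeks (W1, W2, W6 and W12). All groups carried both transgenes, so D0 differs from the others in DOX and in age. The W12 cells came from newborn skin grafted onto immunocompromised hosts, and the effects of 12 weeks and of grafting cannot be told apart. Cells were sorted as negative for CD31, CD45, CD117, CD140a and CD34 and high for CD49f and Ly6A. Cultured EpdSCs from newborn male K14rtTA pups carried lentiviral SOX9 as wild type (WT), without its DNA-binding HMG domain (ΔHMG) or without its transactivation domain (ΔTA). The culture reference was WT cells without DOX for all 3 variants, so that a difference for ΔHMG or ΔTA cells joins the variant, DOX and the cell line. The start sites of 5 of 5 epidermal markers (Krt5, Krt14, Itga6, Itgb4 and Ly6a) carried H3K27ac in all 5 lists, those of 3 immune and 3 fibroblast markers in none, and that of endothelial Pecam1 at W6 and W12 only. Of 3 melanocyte markers, Pmel carried it from D0 to W2 and Mitf at W6 and W12, and of 2 bulge markers only Lhx2 did, at W2. The part of such cells in the results was not tested.

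In the epidermis, p63 (Trp63) is the master regulator of stratified epithelia, and its ΔN isoforms, made from an internal promoter, dominate in basal cells. GATA3, the AP-2 factors and C/EBPα act with it on basal and differentiation genes, the grainyhead-like factors GRHL1 and GRHL3 drive barrier formation and cell adhesion, OVOL1 restrains proliferation as cells commit, and HOPX is a homeodomain-only protein of differentiating and stem cells. H3K4me1 marks primed and active enhancers and H3K27ac the active enhancers and promoters among them, so that an enhancer that goes quiet can lose H3K27ac while H3K4me1 stays.

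The contrasting fates of single H3K27ac peaks are best seen from 6 of them, each shown by the 200 bp around its summit on the plus strand of GRCm38. They are a constant peak at the internal Trp63 promoter (chr16:25802908-25803107), a constant intronic peak of Grhl1 (chr12:24592840-24593039), D0 peaks beyond the 3′ end of Gata3 (chr2:9844497-9844696) and of Grhl3, there inside an intron of Stpg1 (chr4:135531643-135531842), that no later list called, and peaks called at W2 and W6 but not at D0, 1 in an intron of Tfap2b (chr1:19220534-19220733) and 1 downstream of Tfap2c (chr2:172590935-172591134). Capitals mark a match to the SOX letters ACAATG or ACAAAG (Grhl1, Grhl3, Tfap2b), to the C/EBP letters TTGCNNAA (Gata3) or to the GATA letters AGATAA (Tfap2c), each read on both strands.
Trp63, constant: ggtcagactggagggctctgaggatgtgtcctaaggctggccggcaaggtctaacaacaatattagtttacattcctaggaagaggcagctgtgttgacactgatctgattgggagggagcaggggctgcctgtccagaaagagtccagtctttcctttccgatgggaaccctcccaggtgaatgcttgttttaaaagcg
Grhl1, constant: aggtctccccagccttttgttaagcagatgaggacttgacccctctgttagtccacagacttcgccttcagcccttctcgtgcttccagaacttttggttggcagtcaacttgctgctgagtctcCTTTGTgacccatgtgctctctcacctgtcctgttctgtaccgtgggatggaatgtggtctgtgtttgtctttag
Gata3, lost: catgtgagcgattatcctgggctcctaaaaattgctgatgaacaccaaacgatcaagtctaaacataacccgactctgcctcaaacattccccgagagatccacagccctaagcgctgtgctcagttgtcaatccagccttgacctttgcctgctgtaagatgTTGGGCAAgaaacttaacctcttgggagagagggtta
Grhl3, lost: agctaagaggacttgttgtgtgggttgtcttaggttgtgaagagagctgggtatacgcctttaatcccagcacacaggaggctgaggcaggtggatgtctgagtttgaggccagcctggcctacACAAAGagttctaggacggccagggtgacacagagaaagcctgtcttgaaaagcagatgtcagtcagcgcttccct
Tfap2b, gained: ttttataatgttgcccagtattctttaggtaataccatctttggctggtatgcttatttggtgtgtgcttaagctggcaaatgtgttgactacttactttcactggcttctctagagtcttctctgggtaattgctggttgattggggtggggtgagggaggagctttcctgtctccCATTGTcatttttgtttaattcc
Tfap2c, gained: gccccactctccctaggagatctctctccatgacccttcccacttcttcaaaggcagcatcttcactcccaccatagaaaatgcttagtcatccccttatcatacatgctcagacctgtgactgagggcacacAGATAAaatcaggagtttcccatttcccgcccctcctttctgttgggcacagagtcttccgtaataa

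Before induction the 10 loci were among the most marked of the genome. At D0 the H3K27ac peaks covered a median of 13.6% of a member locus against 1.42% over all protein-coding genes, and H3K4me1 domains covered 51.5% against 18.3%. By H3K27ac coverage at D0 the members lay between the 89.4th (Trp63) and the 99.4th (Gata3) percentile of all genes. In H3K4me1 they ran from the 73.8th (Tfap2b) to the 99.9th percentile (Grhl3), whose locus was covered to 80.9%. In cultured cells without DOX the median was 14.1% against 7.52%, and the order changed: Grhl3 was again high at 23.9% while Tfap2b, at 2.56%, lay at the 25.0th percentile.

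All 10 members kept H3K27ac within 1 kb of a start site in all 5 skin lists, as did 30.5% of all protein-coding genes. In single lists the share over all genes was, from D0 to W12, 44.5%, 43.1%, 44.1%, 48.4% and 36.2%. Which start site carried the mark was specific. At Trp63 it was the internal start (chromosome 16, position 25801916), from which ΔN isoforms are transcribed, that was called in all 5 lists. The upstream Trp63 starts at 25683763 and 25683765 were called in none of the 14 lists of either mark. At Hopx the start at 77115121 on chromosome 5 kept its peak throughout, whereas the internal starts at 77095253 and 77095277 had a peak from D0 to W6 and none at W12. All 6 annotated starts of Tfap2a, 3 of Tfap2b, 3 of Tfap2c and 2 of Cebpa were called in every H3K27ac list.

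The strength of promoter peaks was read as the summit pileup over the genome-wide background pileup of the list, here called enrichment, with an exact 95% Poisson interval that covers counting error only. At the internal Trp63 promoter (ENSMUSG00000022510) enrichment was 57.9 in the D0 list (38.8 to 83.2), then 50.2, 49.4 and 38.4, and 29.2 in the W12 list (15.1 to 50.9). The values are lower in each later list, but the intervals of D0 and W12 overlap. Gata3 (ENSMUSG00000015619), whose product partners p63 in the basal layer, gave 73.9, 77.0, 58.8, 57.6 and 41.3 in the same order, with intervals of 52.04 to 102 at D0 and 24.1 to 66.1 at W12. Its promoter peak is unusually wide, covering much of the gene, and its widths in the same order were 19993, 19781, 8299, 15369 and 11049 bp. At W12 the D0 interval was overlapped by 5 separate peaks.

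Among the AP-2 genes, Tfap2a and Tfap2b stood highest of the 10 at D0 and Tfap2c second lowest. Tfap2a (ENSMUSG00000021359) had enrichments of 93.9, 100, 72.9, 70.9 and 70.5, but several peaks span its 6 starts, and the W12 value comes from a peak that did not overlap the strongest D0 peak. The W12 peak that did overlap it reached 38.9. Tfap2b (ENSMUSG00000025927) gave 85.9, 87.0, 75.3, 63.5 and 51.0. Tfap2c (ENSMUSG00000028640) was level from D0 to W6, at 42.0, 43.5, 44.7 and 45.8, and stood at 31.6 at W12.

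The barrier regulators Grhl1 (ENSMUSG00000020656) and Grhl3 (ENSMUSG00000037188) had their lowest values in the middle of the course. Grhl1 gave 55.9, 50.2, 32.9, 39.9 and 51.0, and Grhl3 gave 53.9, 46.9, 32.9, 32.5 and 51.0. At W12 both stood close to D0, at ratios of 0.912 and 0.946. For Grhl1 the intervals were 37.2 to 80.8 at D0, 18.0 to 55.3 at W2 and 31.6 to 78.0 at W12. For Grhl3 they were 35.5 to 78.5, 18.0 to 55.3 and 31.6 to 78.0. All of these overlap, so that a dip and a return are not resolved. Ovol1 (ENSMUSG00000024922) gave 53.9 at D0 (35.5 to 78.5), then 33.5, 32.9 and 31.0, and 26.7 at W12 (13.3 to 47.8), intervals that overlap. Cebpa (ENSMUSG00000034957) gave 57.9, 43.5, 32.9, 31.0 and 38.9. Its W12 value again belongs to a peak beside the D0 peak, and the one that overlapped the D0 peak reached 21.9. Hopx (ENSMUSG00000059325), the weakest promoter of the group, gave 19.98, 20.1, 18.8, 20.7 and 19.4, the narrowest range of the 10.

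Relative to D0 the median ratio of enrichment over the members in the 4 later lists was 0.951, 0.786, 0.727 and 0.711, and 5, 9, 8 and 10 of 10 members were below 1. If the W12 value is taken only from peaks that overlap the strongest D0 peak, the median is 0.577. Over the 9839 to 10051 regions with a value that all 5 lists called, the median ratios were 0.914, 0.883, 0.786 and 0.710, so that peaks called throughout had lower values genome-wide as well. The members' median lay below these at W2 and W6 and was level with them at W12, at 0.711 against 0.710. The 0.577 has no genome-wide value measured in the same way. The regions were not limited to promoters or matched for strength at D0, and the counting intervals of single promoters are wide.

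**Figure D1:**
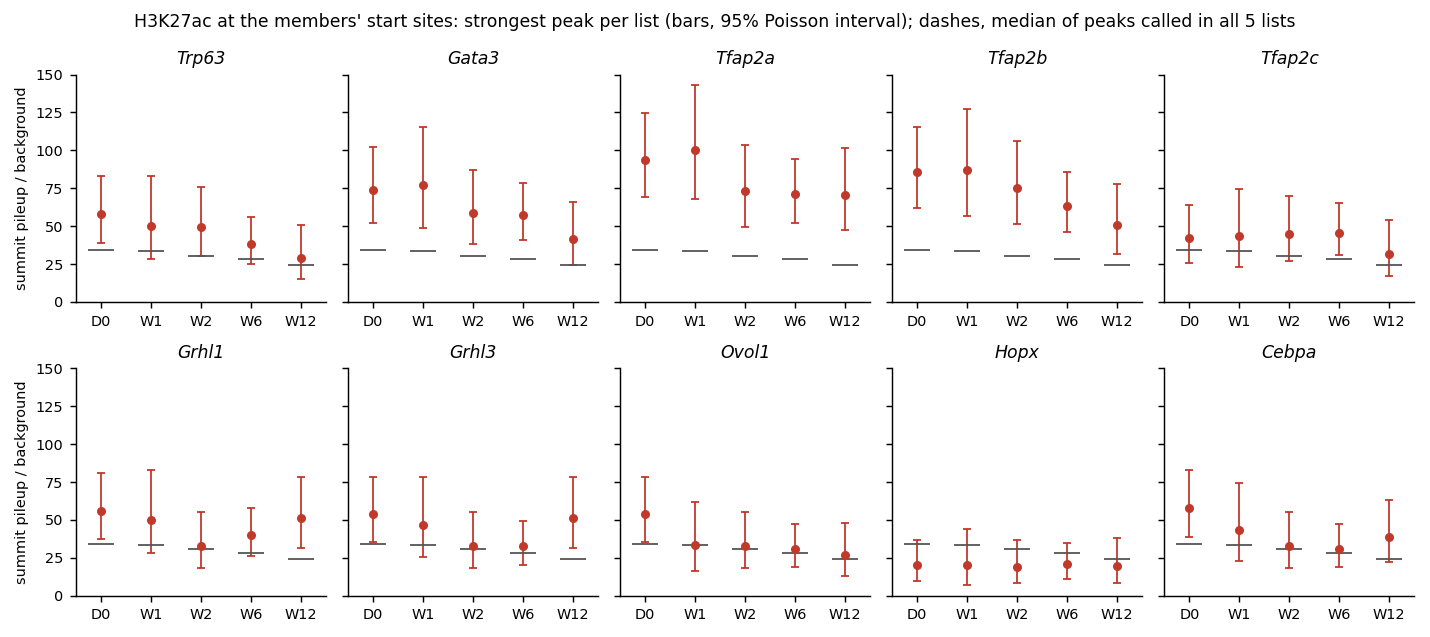
Enrichment at the members' start sites (summit pileup over background, y axis) in the 5 skin H3K27ac lists (x axis), with exact 95% Poisson intervals as bars and the median of peaks called in all 5 lists as dashes. Tfap2a and Tfap2b are highest, at 93.9 and 85.9 at D0, Hopx stays between 18.8 and 20.7, and Grhl1 and Grhl3 are both at 51.0 at W12.

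H3K4me1 lay within 1 kb of a start site at 9, 9, 10, 10 and 9 of 10 members in the lists from D0 to W12, against 68.9%, 64.3%, 65.2%, 68.0% and 64.7% of all genes. Gata3 lacked it at W1 and W12 and Cebpa at D0. In culture it lay there at 7 members in the reference and at 6, 7 and 8 members in the WT, ΔHMG and ΔTA lists, where the shares of all genes were 56.8%, 57.7%, 53.4% and 54.2%. Gata3 and Ovol1 had none in any culture list, and Cebpa had it with ΔTA-SOX9 only. Trp63 lacked it with WT SOX9 only, where a domain upstream was still called but had narrowed from 2276 bp to 503 bp, at a fold over local background of 4.02 without DOX and 2.72 with it. The domain within 1 kb of the Trp63 start was also narrower than the reference with ΔHMG-SOX9 (419 bp) and ΔTA-SOX9 (324 bp).

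Single H3K27ac peaks were then followed from list to list. Of 125 D0 peaks at the member loci, 41, 44, 40 and 64 had no overlapping peak in the W1, W2, W6 and W12 lists, which is 32.8% (exact 95% binomial interval 24.7 to 41.8), 35.2% (26.9 to 44.2), 32.0% (23.9 to 40.9) and 51.2% (42.1 to 60.2). Over the whole lists the shares lost were 37.4%, 38.6%, 37.8% and 53.7%, inside the members' intervals each time. D0 peaks were therefore lost at these loci about as often as anywhere. Peaks without a D0 counterpart made up 38 of 122 at W1 (31.1%, 23.1 to 40.2), 42 of 112 at W2 (37.5%, 28.5 to 47.2), 28 of 115 at W6 (24.3%, 16.8 to 33.2) and 30 of 102 at W12 (29.4%, 20.8 to 39.3). The whole lists gained 41.3%, 40.1%, 39.8% and 56.2%, above the members' intervals at W1, W6 and W12 and inside it at W2.

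The peaks that dropped out were weaker in the median. Their median fold at D0 was 4.66 in all 4 comparisons, against 9.33 for those kept at W1, W2 and W6 and 9.996 for those kept at W12. The whole D0 list had the same 4.66 for lost peaks and 7.997 to 9.33 for kept peaks. Because the lists differ in depth, with a background pileup between 0.299 at W1 and 0.677 at W6, the comparison was repeated with peaks high enough that the other list, at its depth, could have called them. Of such D0 peaks 2 of 51 were lost at W1 (3.92%), 0 of 53 at W2 (upper limit 6.72%), 5 of 63 at W6 (7.94%) and 8 of 51 at W12 (15.7%), beside 8.03%, 10.3%, 12% and 21.1% over the whole list, of which the W2 value lies outside the members' interval. Of such later peaks 4 of 49 were new at W1 (8.16%), 13 of 57 at W2 (22.8%), 4 of 57 at W6 (7.02%) and 7 of 61 at W12 (11.48%), beside 13.3%, 20.2%, 15.6% and 22.2%.

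**Figure D2:**
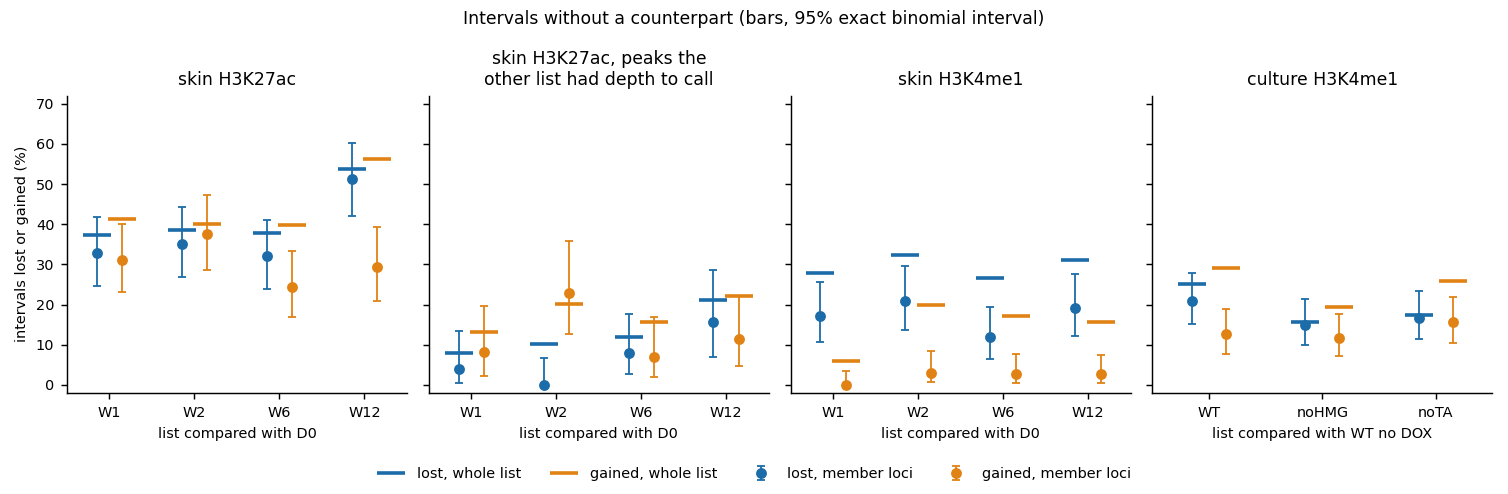
Share of intervals lost or gained (y axis, percent) at the member loci in each list against its reference (x axis), as points with exact 95% binomial intervals, beside the whole list as dashes, for all H3K27ac peaks, for those the other list had the depth to call, for skin H3K4me1 and for culture H3K4me1. The intervals of all-peak H3K27ac losses include the dashes, the depth-limited loss at W2 (0 of 53) lies below its dash, and skin H3K4me1 gains, at most 3 domains in a list, lie below the dashes in all 4 comparisons.

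The loci differed among themselves. Tfap2b lost 0 of 10 D0 peaks at W1, W2 and W6 and 5 of 10 at W12, and Tfap2a lost 2, 1, 0 and 4 of 10. Ovol1 lost 3, 1, 1 and 2 of 9. At the other end Gata3 lost 7, 7, 6 and 9 of 12, and Tfap2c 3, 6, 5 and 7 of 9. Hopx went from 4 of 15 at W1 through 6 and 8 to 11 of 15 at W12. Trp63 lost 6, 5, 4 and 8 of 20, Grhl1 5, 5, 5 and 4 of 12, Grhl3 6, 7, 6 and 8 of 15, and Cebpa 5, 6, 5 and 6 of 13. The AP-2 genes Tfap2a and Tfap2b thus had fewer lost peaks up to W6 than their relative Tfap2c, on 9 or 10 peaks each. At Tfap2b the lists from D0 to W6 held 10, 4, 6 and 8 peaks, and its promoter peak widened from 6725 bp at D0 to 12341 bp at W1. A wide peak can overlap several D0 peaks, which then all count as kept. Among lost peaks whose pileup could be recovered from the fold, none of Gata3 or Tfap2c was within the depth of the later list. The D0 peak of Tfap2c at 172602966-172603573 (fold 6.62), not called at W2, W6 or W12, had no recovered pileup and could not be judged. Tfap2a and Tfap2b each had 1 loss within the depth of the later list, at W12. The order of the loci thus rests on peaks that were weak or could not be judged.

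Trp63, the longest locus at 308 kb where the others span 103 to 145 kb, gained 11 of 22, 21 of 32, 10 of 26 and 11 of 22 peaks in the W1, W2, W6 and W12 lists. These are 50%, 65.6%, 38.5% and 50% beside the whole lists' 41.3%, 40.1%, 39.8% and 56.2%, so that the share stood well above the whole list at W2. Without the Trp63 locus the gained share at W2 was 26.25%, in place of 37.5%. Of 50 H3K27ac regions at Trp63, 26 were in 1 later list only, a class that holds 45.8% of regions in the genome. Tfap2a, at 123 kb, gained 8 of 17, 6 of 13, 7 of 14 and 2 of 9. Grhl3 gained 2 of 13, 0 of 7, 0 of 12 and 2 of 9, and Cebpa 2 of 13, 1 of 6, 0 of 7 and 2 of 11.

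**Figure D3:**
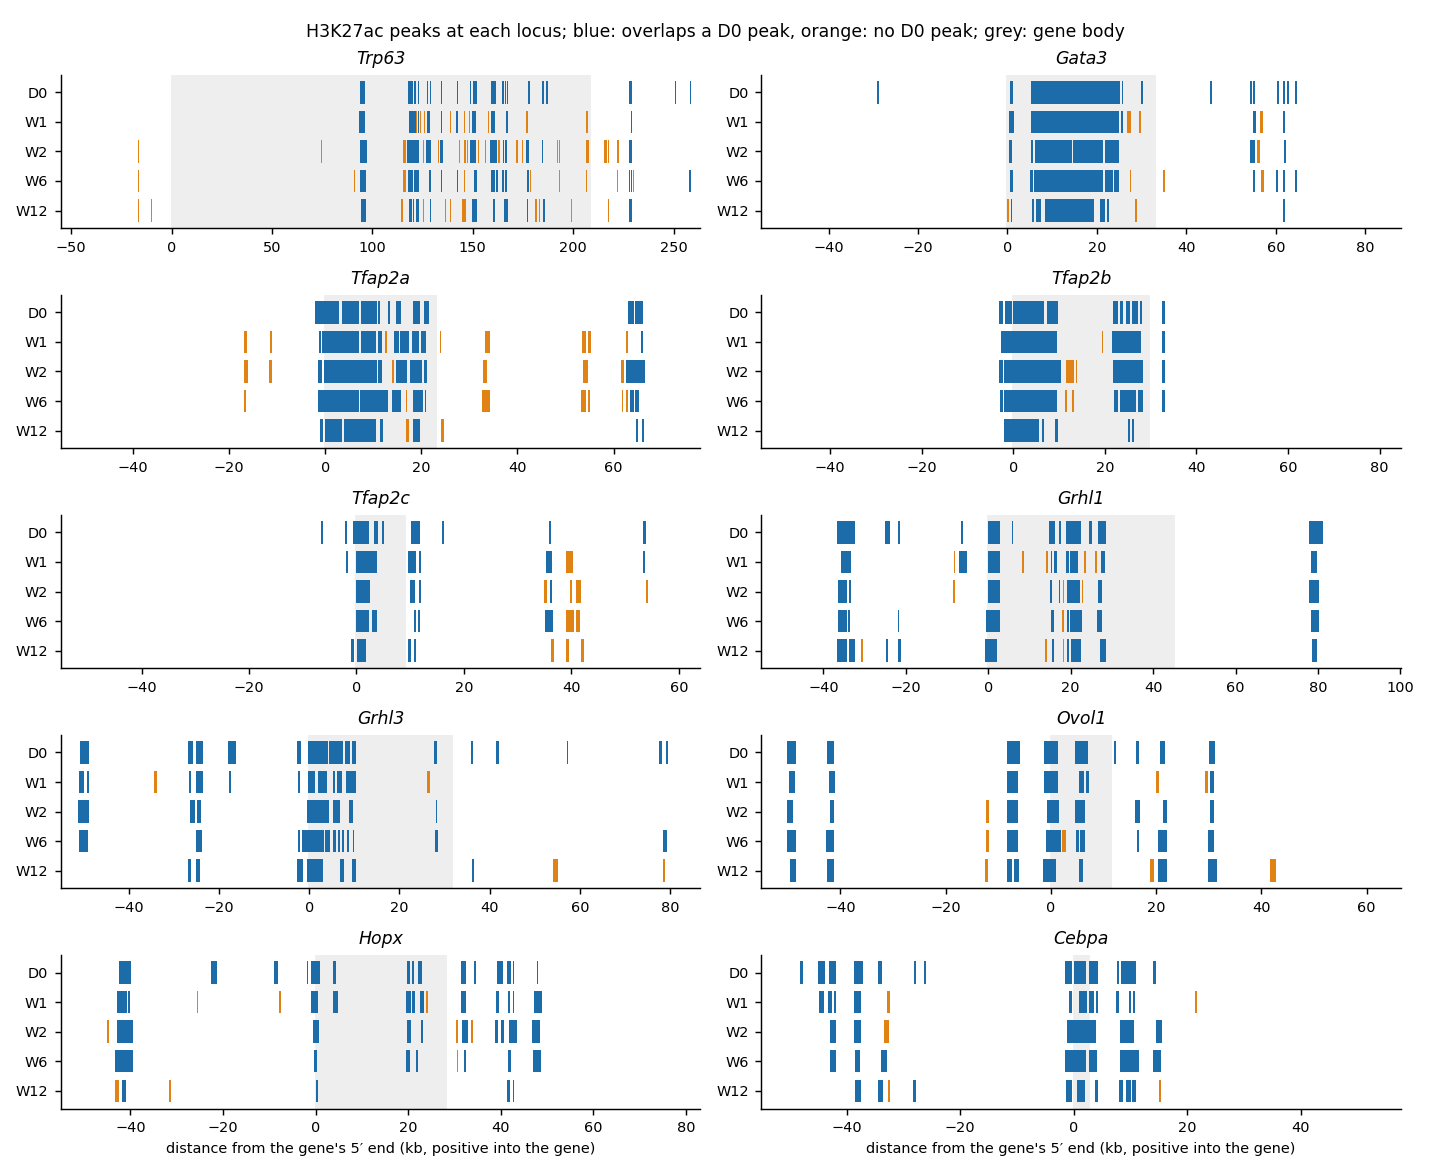
H3K27ac peaks at the 10 loci (x axis, distance from the gene's 5′ end in kb, with the gene body in grey) in the 5 skin lists (rows), blue where a D0 peak overlaps and orange where none does. Orange peaks crowd the second part of the Trp63 gene body at W2, where 21 of 32 peaks are new, and the Hopx row at W12 has few peaks left, 11 of 15 D0 peaks being lost.

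At Trp63 the peak of the internal promoter spanned 25801378 to 25804048 on chromosome 16 at D0. The gained peak named here, the W2 peak of highest fold that D0 lacked and W6 or W12 also called, lay just before it, at 25798992-25800477 in the intron, with a summit at -1982 bp from the internal start. Its pileup was 8 at W2 and 9 at W6, and it was not called at D0, W1 or W12. Another intronic W2 peak of equal fold that D0 lacked, at 25829156-25830133, was called at W1, W2, W6 and W12. Of the new W2 peaks that D0 had the depth to call, 6 were at Trp63 (fold 6.32 or 7.02), 5 in introns and 1 beyond the 3′ end of the gene. The constant promoter peak and the 6 new peaks overlapped H3K4me1 domains that were already called at D0. The D0 domain at the internal start (25796801-25801800) ended before the summit of the promoter peak at 25803008. The D0 peak lost from all later lists was weak, a fold of 3.54 at an exon at 25870301-25871153.

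At Gata3, on chromosome 2, the lost D0 peak at 9844354-9844712 lay 34003 bp downstream of the start. Its pileup was 6, near the smallest called pileup of the D0 list (4), so that its absence from later lists is not resolved at this depth. No W2 peak met the same rule at Gata3. The only later peaks without a D0 counterpart that D0 had the depth to call were 1 at W6 (9832718-9833285, pileup 11) and 1 at W12 in an intron (9861087-9861423, pileup 9).

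Some gains at the AP-2 loci were called in several lists. At Tfap2a, on chromosome 13, the peak at 40676294-40676906, 52443 bp downstream of the start, had a pileup of 11 at W2 and 6 at W6. A neighbour at 40682998-40685203 was called at W1, W2 and W6 with pileups of 8, 9 and 8, and another at 40704043-40705856 with 5, 7 and 12. Neither was called at D0 or W12. At Tfap2c, on chromosome 2, the region at 172588545-172590028, 38069 bp downstream, held a peak in all 4 later lists, with pileups of 7, 7, 12 and 9. Its W2 and W12 peaks did not overlap each other. Next to this region the gained peak at 172590510-172591332, whose sequence is printed above, had a pileup of 10 at W2 and 13 at W6. The peak at 40704043-40705856 overlapped the start of Gm9979 and the others lay in intergenic DNA, and no chromatin contact was measured that would tie them to the AP-2 genes. At Tfap2b, on chromosome 1, the gained intronic peak at 19220388-19222199 had a pileup of 9 at W2 and 6 at W6.

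Some stronger D0 peaks were lost as well. At Grhl3, on chromosome 4, the intronic peak at 135545193-135545926 had a pileup of 16 at D0, was not called at W1, was called with 7 at W2 and 12 at W6 and was again not called at W12. Scaled to the depth of W1 and W12, its D0 pileup corresponds to 9.55 and 13.2 there, above the smallest called pileups of 3 and 4. Upstream of Grhl3 a peak at 135622548-135624542, with a pileup of 17 at D0, was called up to W6 and not at W12, and a peak at 135599282-135600454 (pileup 13) was missing at W6 only. The D0 peak whose sequence is shown, at 135531481-135532147 in an intron of Stpg1, had a pileup of 9 and was not called later. Of the later lists only W6 had the depth to call this peak. Its nearest start is that of Stpg1. At Grhl1, on chromosome 12, the intronic peak at 24591148-24594858 was constant and strong, with pileups of 59, 24, 33, 54 and 39 and folds of 40.0, 19.2, 23.9, 32.8 and 28.3. It ranked in the top 1.07% of the D0 list.

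At Hopx, on chromosome 5, the constant peak lay upstream in intergenic DNA (77155116-77157548, summit at -40351 bp), with folds of 13.99, 8.47, 18.2, 13.1 and 8.50. It exceeded the promoter's own fold of 7.33 at D0. Downstream of Hopx, peaks at 77066990-77067357 (pileup 12 at D0) and 77082530-77083802 (pileup 11) were called up to W6 and not at W12. At Cebpa, on chromosome 7, a constant peak at 35080633-35082142, -38055 bp from the start and nearer to that of Cebpg, had folds of 26.0, 6.93, 12.6, 14.9 and 12.8. Close to it a peak at 35076101-35077495 with a pileup of 20 at D0, the highest among those lost against depth, had 10, 9 and 10 at W1, W2 and W6 and was not called at W12. At Ovol1, on chromosome 19, the strongest constant peak was the promoter of its neighbour Kat5, so that nearby genes share this window. The peaks named for Grhl3, Hopx, Cebpa, Tfap2c and Tfap2a by their depth-scaled pileups, and the W6 and W12 gains of Gata3, were chosen after their values were seen.

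Over time, the 176 H3K27ac regions of the member loci held 43 (24.4%) that all 5 lists called, against 15.6% of 65311 regions of the genome. Another 28 (15.9%, genome 11.4%) were in D0, or in D0 and W1, and never later. Regions in 1 later list only numbered 54 (30.7%, genome 45.8%), and 5 (2.84%, genome 2.54%) appeared after D0 and were present at W2, W6 and W12. Regions without D0 in other sets of 2 or more later lists numbered 19 (10.8%, genome 9.96%), 7 of them at Trp63 and 5 at Tfap2a. All these shares are of all regions, with or without a D0 peak. The members' lower share of regions in 1 later list only therefore raises their other shares, that of early losses included.

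H3K27ac coverage of the loci combines these changes. At Trp63 the locus was covered to 6.44%, 6.56%, 11.9%, 7.76% and 6.80% in the lists from D0 to W12. At Gata3 the values were 18.2%, 18.3%, 15.8%, 16.8% and 11.8%, at Grhl3 14.7%, 9.06%, 7.98%, 9.33% and 7.66%, and at Hopx 11.1%, 10.2%, 10.6%, 6.83% and 2.54%. Hopx at W12 had the lowest value of any member in any skin list. Tfap2a was higher than D0 up to W6, at 15.2%, 18.5%, 20.99% and 20.2%, and stood at 12.1% at W12. Coverage was below D0 at 5, 7, 6 and 8 of 10 members in the later lists, where 50.7%, 44.3%, 35.4% and 65.9% of all protein-coding loci with any coverage were below it. The median ratio to D0 was 0.962, 0.862, 0.938 and 0.612 for the members and 0.972, 1.04, 1.14 and 0.712 for all genes. The members began far above the average gene and were not matched to genes of equal coverage, so that the lower ratios do not set them apart.

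H3K4me1 changed less by its intervals. Of 110 D0 domains at the member loci 19 (17.3%, 10.7 to 25.7), 23 (20.9%, 13.7 to 29.7), 13 (11.8%, 6.45 to 19.4) and 21 (19.1%, 12.2 to 27.7) had no counterpart at W1, W2, W6 and W12, where the whole lists lost 27.8%, 32.4%, 26.6% and 31.2%. New domains were nearly missing, with 0 of 104 at W1 (upper limit 3.48%) and then 3 of 100, 3 of 111 and 3 of 113. The whole lists had 5.96%, 20.0%, 17.1% and 15.6%. At D0 the domains already covered a median of 51.5% of a member locus, against 18.3% over all genes. How much room that left for domains without a D0 overlap was not tested. Of 101 domain regions 69 (68.3%) were in all 5 lists, against 39.5% in the genome. Tfap2a lost 0 of 8 domains in every list and Grhl3 1 of 12 at W1 and none later, whereas Tfap2b lost 1, 3, 4 and 5 of 8 at W1, W2, W6 and W12.

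Coverage by H3K4me1 was nevertheless lower than at D0 at 10, 9, 8 and 9 of the 10 members in the W1, W2, W6 and W12 lists, beside 80.7%, 65.9%, 68.8% and 70.9% of all genes. The median ratio to D0 was 0.936, 0.902, 0.890 and 0.79997 for the members and 0.839, 0.886, 0.877 and 0.858 for all genes, higher for the members except at W12. At Grhl3 coverage was 80.9%, 60.5%, 45.1%, 57.2% and 59.2%, the widest range in H3K4me1 of the 10 loci, while Trp63 stayed between 47.2% and 52.4%. Tfap2c had 53.02%, 42.2%, 31.4%, 42.4% and 38.2%. Among single domains, one downstream of Grhl1 and nearer to Klf11 (chr12:24633401-24635400, 2000 bp wide) was in no later list, and one downstream of Tfap2b (chr1:19255401-19256800, 1400 bp) was kept at W1 only. Downstream of Trp63 a W2 domain without a D0 counterpart (chr16:25929401-25932400, 3000 bp) was overlapped at W6 by one of 2600 bp and at W1 by one of 5400 bp, which also reached a D0 domain.

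The marks were joined at the lost H3K27ac peaks. Of those lost peaks that lay in an H3K4me1 domain at D0, 39 of 40 (97.5%), 40 of 43 (93.0%), 37 of 39 (94.9%) and 61 of 63 (96.8%) still lay in one in the W1, W2, W6 and W12 lists. Over the whole list the shares were 95.7%, 90.4%, 94.1% and 94.0%. H3K27ac peaks at the member loci thus went uncalled while the wider H3K4me1 domain was still called, as they did elsewhere. Of all lost peaks only 2, 0, 5 and 8 were among those the later list had the depth to call, so for the rest a loss is not resolved. Domains covered much of each locus, and how often such overlap would arise from that alone was not tested.

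**Figure D4:**
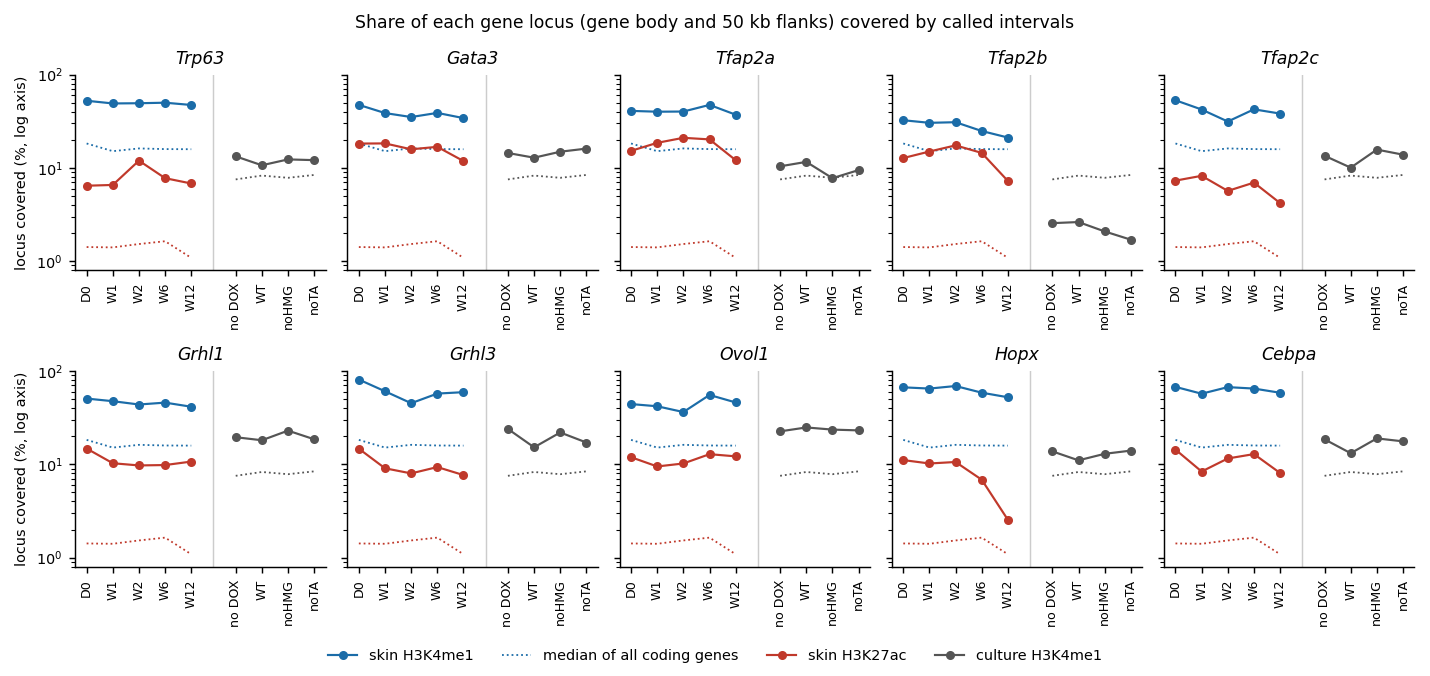
Share of each member locus covered by called intervals (y axis, percent on a log axis) in the skin lists from D0 to W12 and the 4 culture lists (x axis), with dotted lines for the median of all protein-coding genes. H3K4me1 at Grhl3 runs from 80.9% to 45.1%, and H3K27ac at Hopx from 11.1% to 2.54%.

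In culture, 167 domains without DOX lay at the member loci. With WT SOX9, 35 had no counterpart (20.96%, 15.1 to 27.9), with ΔHMG-SOX9 25 (15.0%, 9.93 to 21.3) and with ΔTA-SOX9 28 (16.8%, 11.4 to 23.3), where the whole lists lost 25.1%, 15.6% and 17.5%. Gains were 19 of 151 (12.6%, 7.75 to 19.0), 19 of 163 (11.7%, 7.17 to 17.6) and 26 of 167 (15.6%, 10.4 to 22.0), below the whole lists' 29.1%, 19.3% and 25.8%. The 3 comparisons share the list without DOX. All 4 lists called 115 of 204 domain regions (56.4%, genome 40.5%). Grhl3 lost 9, 5 and 8 of 23 domains with WT, ΔHMG and ΔTA, Trp63 6, 8 and 7 of 34, and Tfap2b 0 of 3 each time.

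Locus coverage was below the reference at 7, 5 and 6 members with the WT, ΔHMG and ΔTA factors, where 41.5%, 45.4% and 37.3% of all genes were below it, and the median ratios were 0.847, 0.982 and 0.951 (all genes 1.05, 1.02 and 1.07). Grhl3 had 23.9% without DOX and 15.2%, 21.9% and 17.1% with the variants. Cebpa had 18.5% and then 13.1%, 18.9% and 17.6%, and Tfap2c 13.5% and then 10.1%, 15.7% and 13.9%. All 7 members below the reference with WT SOX9 (Trp63, Gata3, Tfap2c, Grhl1, Grhl3, Hopx and Cebpa) were lowest in that list. The others were highest with it: Ovol1 (22.5%, then 24.8%, 23.5% and 23.1%), Tfap2a (10.4%, then 11.59%, 7.76% and 9.47%) and Tfap2b (2.56%, then 2.63%, 2.09% and 1.70%). Each condition was 1 list and the difference between variants was not tested. An intronic Trp63 domain at 25767365-25768478 (fold 4.801, score 67, in the top 25.5% of its list) was lost with all 3 variants. Domains at Grhl3 (chr4:135584593-135586180) and in an intron of Hopx (chr5:77102076-77103370) were gained with all 3, and one at Tfap2a (chr13:40693097-40695365, score 82) with WT SOX9 only.

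**Figure D5:**
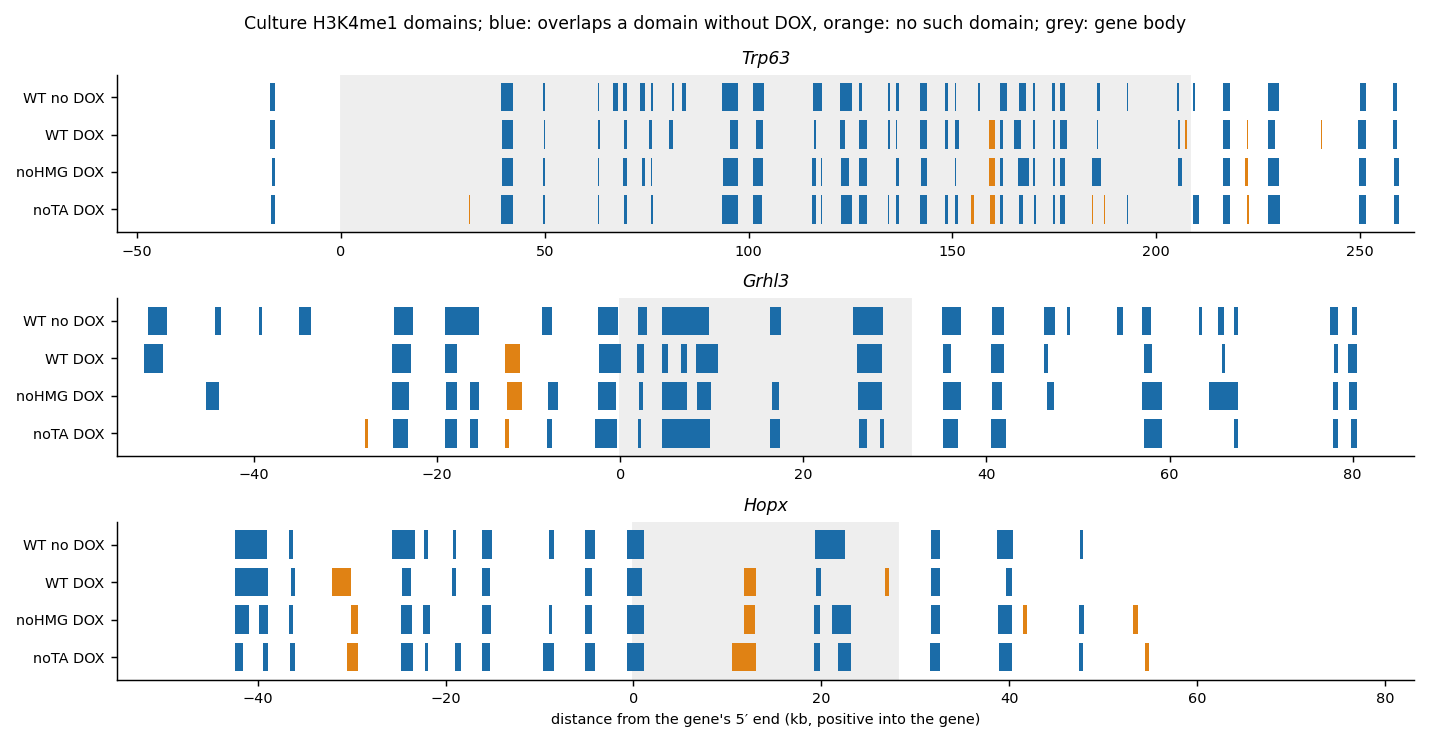
Culture H3K4me1 domains at Trp63, Grhl3 and Hopx (x axis, distance from the gene's 5′ end in kb) in the 4 lists (rows), blue where a domain without DOX overlaps and orange where none does. At Grhl3, 9 of 23 domains without DOX have no counterpart with WT SOX9, and 1 orange domain upstream recurs with all 3 variants.

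Among 8 HFSC factors (Sox9, Lhx2, Nfatc1, Tcf7l1, Foxc1, Nfib, Runx1 and Gli2) H3K27ac coverage was below D0 at 1, 0, 0 and 5 in the later lists. The median locus coverage of the HFSC factors in H3K27ac went from 2.25% at D0 to 2.90%, 7.14%, 5.92% and 3.49%, where the members had 13.6%, 9.84%, 11.1%, 11.3% and 7.86%. In H3K4me1 the median for the members was 51.5%, 44.8%, 41.9%, 48.6% and 43.7% from D0 to W12. For the HFSC factors it was 32.0%, 35.1%, 53.5%, 40.9% and 40.9%, above the members at W2 only. Gained H3K27ac peaks were 58.1%, 64.2%, 60.2% and 66.7% of all at the HFSC loci and 31.1%, 37.5%, 24.3% and 29.4% at the members, where the whole lists had 41.3%, 40.1%, 39.8% and 56.2%. Among peaks the D0 list had the depth to call, 15 of 37, 20 of 49, 17 of 38 and 15 of 35 were new at the HFSC loci, beside 13.3%, 20.2%, 15.6% and 22.2% of the whole lists. The endogenous Sox9 locus shares sequence with the transgene.

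Finally, motif letters were searched in the 200 bp around the summits, on both strands. Among 125 D0 peaks at the members, C/EBP letters (TTGCNNAA) were in 13 (10.4%, 5.65 to 17.1) against 6.30% over the D0 list. GATA letters (AGATAA) were in 7 (5.60%, whole list 7.17%), AP-2 letters (GCCNNNGGC) in 9 (7.20%, 9.59%), GRHL letters (AACCNGTT) in 3 (2.40%, 1.4999%), the p53 family half-site in 9 (7.20%, 6.83%) and SOX letters in 28 (22.4%, 20.6%). Of 42 peaks gained at W2, 10 held SOX letters (23.8%, 12.1 to 39.5), where 27.04% of all peaks gained at W2 did. A SOX match was therefore about as frequent at the members' new peaks as at their D0 peaks, and its interval includes both whole-list shares. A match is a description of letters and not a bound site.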

How the data were processed

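MINT-ChIP data of 38 samples were grouped by their labels. The authors trimmed reads with Skewer, aligned them to GRCm38/mm10 with Bowtie2 (2.2.9), used Picard against duplicates and pooled replicates through SAMtools (1.9). MACS2 (2.1.1) gave the H3K27ac peaks and epic2 the H3K4me1 domains. The submitters' notes name SICER (0.0.36). How the culture lists, which have the MACS2 layout, were called is not given in the sources used here. Each domain of the deposited skin H3K4me1 lists carries a p-value. Intervals of the deposited H3K27ac and culture lists carry a score, a fold enrichment (a ratio to the background nearby) and a −log10 p. Files of barcodes (14) hold no measurement and were not used here.

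Gene bodies and start sites were those of the basic set of GENCODE M21. Members and lists were chosen with earlier results of these data known. An interval was lost or gained where the other list had none overlapping by 1 bp. The summit pileup was recovered from folds that equal pileup plus 1 over background plus 1 (82.3% to 95.9% of peaks, within 0.002 of a whole pileup). Peaks with depth to be called had a pileup, scaled to the other list, whose lower 95% Poisson limit exceeded that list's smallest called pileup, a setting added after seeing the data. Peaks without a recovered pileup were left out of these counts. Named peaks were, per locus, those of highest fold: a D0 peak in all 5 lists, a D0 peak absent at W2, W6 and W12, and a W2 peak absent at D0 and called at W6 or W12. Sequence came from GRCm38. Shares carry exact Clopper-Pearson 95% intervals, and intervals cover counting error only. Percentages for all genes or whole lists were measured the same way. Functions were tested on simulated lists. Python (3.11.15), numpy (2.4.6), pandas (2.3.3), SciPy (1.17.1) and matplotlib (3.10.9) were used. No test between lists was possible, since every list pools its replicates. The alternatives were flanks of 10 kb, an overlap of 50%, intervals above the median score, equally long lists, joined intervals (gaps under 1000 bp), nearest-gene assignment and promoters of 2500 bp on both sides, and, also added, leaving out Trp63. A second list of epidermal factors is not reported here.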

Additional observations from a re-analysis of the deposited data

How the results depend on the processing

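Each list pools its replicates, so leaving out 1 replicate could not be run. No paired analysis was possible because the pooled lists carry no replicate numbers. Depth limits the weak peaks: a D0 peak near a pileup of 4 can be missed elsewhere. Of the alternative values 167 stayed within the tolerance set for them (the main value's 95% interval for a share, 1.5 times the main count for a count) and 37 moved. Within that tolerance, start sites with 2500 bp on both sides gave H3K4me1 at 9, 9, 9 and 10 members in culture in place of 7, 6, 7 and 8. With intervals above the median score the members with lower coverage went from 5 to 7 (H3K27ac W1), from 7 to 5 (WT in culture) and from 6 to 4 (ΔTA), so that the last no longer holds for most members. Counted over whole lists in the same way, the members' gained shares lay below the whole list's in every comparison under the 4 settings that change the lists. Lost H3K27ac shares lay below it in 4 of 4 comparisons at 50% overlap and at equal length, in 3 with intervals above the median score and in 2 after joining.

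The share that moved depended on the setting. With intervals above the median score, H3K27ac gained 21.3% at W1, 25.9% at W2 and 16.4% at W6 and lost 33.3% at W12, and H3K4me1 gained 5.06% at W1. In culture this setting gave losses of 28.7%, 25.3% and 26.4% and gains of 27.9%, 23.3% and 25.3% for WT, ΔHMG and ΔTA. With flanks of 10 kb, H3K4me1 lost 8.33%, 6.25%, 6.25% and 10.4%, gained 0% at W2 and 0% at W6, and ΔHMG gained 6.25%. With lists of equal length, H3K4me1 lost 5.43% at W1, 13.7% at W2 and 11.46% at W12 and gained 3.85% at W1. Without Trp63, H3K27ac gained 26.25% at W2. Among peaks with depth to be called, H3K27ac lost 3.92%, 0%, 7.94% and 15.7% and gained 8.16%, 22.8%, 7.02% and 11.48%. At the named H3K27ac peaks, searching 200 bp at the summit in place of whole intervals moved all 6 motif counts. The cause of these shifts was not tested.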
